A study of Mus musculus with 71 samples.

Results

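The variant PRC1 genes and 2 deubiquitinase genes that act beside them were described by their chromatin loops in mouse synovial sarcoma (SyS). The 10 members were Rnf2, Ring1, Pcgf1, Pcgf3, Pcgf6, Rybp, Yaf2, Kdm2b, Usp7 and Bap1, of 55450 genes in the GENCODE annotation, and their loops were those with an anchor within 2 kb of any of their transcription start sites (TSSs). The loops came from H3K27ac HiChIP of 2 tumors, an assay that ligates DNA ends that lie close together in the nucleus and then captures the ligated fragments with an antibody to the acetylated histone of active promoters and enhancers. Both tumors were of the hSS2 model, which expresses the human SS18::SSX2 fusion from the Rosa26 locus after hindlimb injection of TATCre protein early in postnatal life, and the list held no control or treated group. Whole tumors were dissociated, so that immune, endothelial and stromal cells could contribute, and which tumor gave which loop was not recorded in the merged list. All coordinates are mm10.

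Polycomb repressive complex 1 (PRC1) places a ubiquitin on a lysine of histone H2A (H2AK119ub), a mark of silenced developmental genes. The catalytic core is RNF2 (RING1B) or its paralog RING1 (RING1A) bound to 1 of the PCGF proteins. In variant PRC1, RYBP or YAF2 takes the place that a CBX protein has in canonical PRC1, and the PCGF protein sets which other partners join. KDM2B, through a zinc finger that binds unmethylated CpG, brings the PCGF1 complex to CpG islands, and USP7 is a deubiquitinase found with variant PRC1. BAP1 is the catalytic subunit of PR-DUB, the complex that removes H2AK119ub, so that its gene is the member that stands for removal and not for writing. The SSX portion of the fusion is known to bind nucleosomes with this mark. What follows measures loops at the genes that encode these proteins and not the mark itself.

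The merged list held 24244 loops with 41574 paired-end tags in all, and its depth limits what can be read from any single gene. The list was sorted by position 2 times over, so that it was made of a first part of 13683 loops with 28657 tags and a second part of 10561 loops with 12917 tags. The parts were not assigned to tumors and were not treated as replicates, and no test between samples was possible. The shortest loop listed with a single tag spanned 344.2 kb among those of the first part and 108.8 kb among those of the second, so that shorter loops are listed there only with more tags. As a check of the tissue, 4 of 6 mesenchymal and SyS marker promoters had a loop, beside 45.8% of all protein-coding genes. Pdgfra had a summed 41 tags, Twist1 22, Prrx1 5 and Tle1 4, whereas Bcl2 and Col1a1 had none. The median over all protein-coding genes with a loop was 4 tags, so Tle1 and Prrx1 did not stand out. Over the 4 epithelial genes, Epcam and Krt18 had 1 tag each, and Krt8 and Cdh1 were at 0. Over the 3 endothelial genes, Cdh5 had 3 tags, and Pecam1 and Kdr were at 0. The 3 immune genes Ptprc, Cd68 and Cd3e and the 4 skeletal muscle genes Myod1, Myog, Des and Acta1 were all at 0. A promoter without a loop may still be expressed, so these counts describe loops and not cell numbers.

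Loops were listed at 9 of the 10 members, all but Usp7. Over all 21951 protein-coding genes, 45.8% had a loop by the same rule. The loop score of a gene, the summed tags of its loops, had a median of 4.5 tags over the members and of 0 tags over the protein-coding genes. Among genes with at least 1 loop, the medians were 5 tags for the members and 4 for the protein-coding genes. Because genes with more TSSs have a wider window, the score was also taken per kb of promoter window, which gave medians of 0.923 tags per kb over the looped members and 0.491 over the looped protein-coding genes. A score of at least 10 tags was reached by Ring1, Pcgf1 and Bap1, 3 of 10 members against 10.9% of the protein-coding genes. A loop with at least 2 tags was listed at 6 members, against 21.2%, and a loop with an FDR under 0.001 at Rnf2, Ring1, Rybp and Bap1, against 11.2%.

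In all, the members had 47 loops with 113 tags (exact Poisson 95% interval 93.1 to 136, for counting error only). Ring1 held 65 of these tags, or 57.5%, and without it 31 loops with 48 tags remained (35.4 to 63.6). A single tag supported 34 of the 47 loops, which is 72.3% (Wilson 95% interval 58.2 to 83.1), beside 77.8% of the loops of all protein-coding promoters. The order of the loop scores was Ring1 with 65 tags, Pcgf1 with 11, Bap1 with 10, Rybp with 6, Pcgf6 with 5, then Rnf2, Pcgf3, Yaf2 and Kdm2b with 4 each, and Usp7 with 0. Ring1 was separated from Pcgf1 by intervals that did not meet, and every other pair of neighbours in this order had overlapping intervals.

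**Figure D1:**
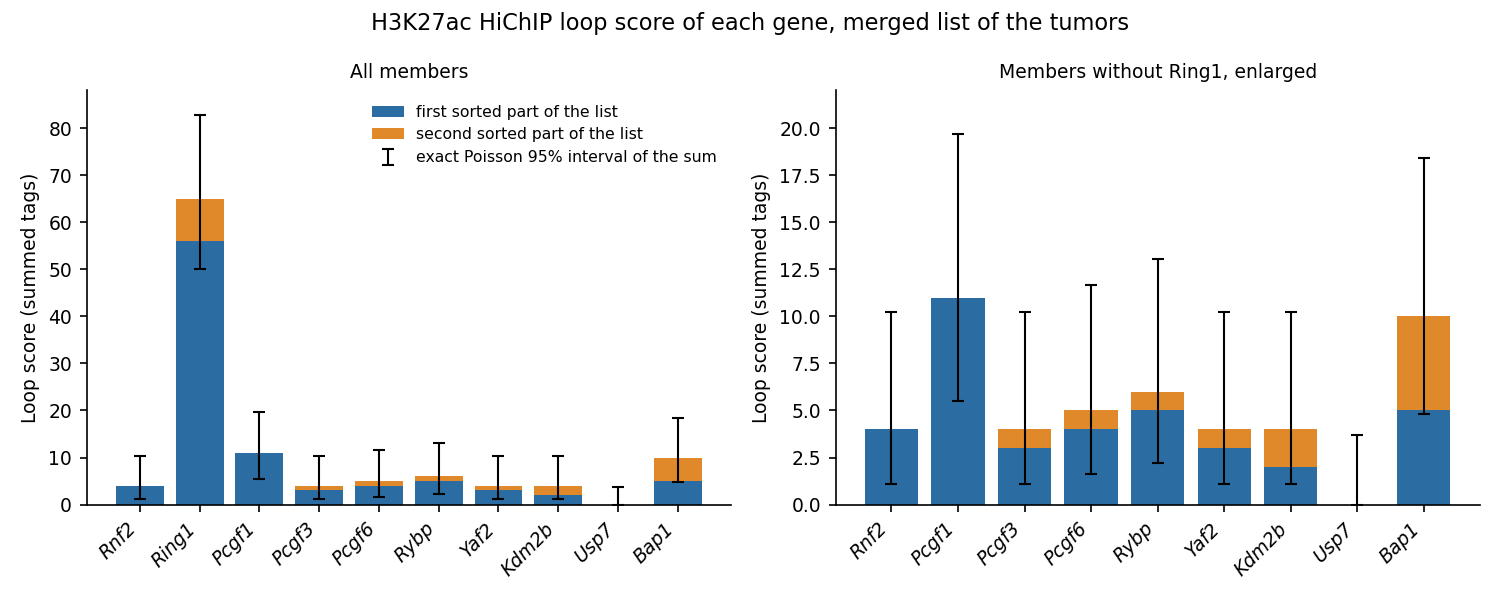
Loop score (summed paired-end tags, linear axis) of each of the 10 genes, with tags of the first sorted part of the list in blue and of the second in orange, and the exact Poisson 95% interval of the sum as a black bar. The panel on the right leaves out Ring1, whose 65 tags stand above the 0 to 11 tags of the other 9 genes.

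Rnf2 and Ring1, the alternative catalytic subunits, differed in loop score, with 4 tags (1.09 to 10.2) at Rnf2 and 65 tags (50.2 to 82.8) at Ring1. Ring1 ranked 104th among the protein-coding genes, and 99.5% of them had a lower score. Per kb of promoter window, Ring1 had 13.7 tags and Rnf2 0.325 tags. Ring1 lies in the major histocompatibility region of chromosome 17, with 48 genes within 500 kb, more than 93.9% of protein-coding genes have, whereas Rnf2 has 11 within that distance. The part of gene density in the difference was not tested. All Ring1 loops began at 1 promoter anchor, which also reached H2-Ke6. Leaving out loops whose promoter anchor also reached another protein-coding gene therefore removed every Ring1 loop. That count, with 0 tags at Ring1 and 4 at Rnf2, cannot order these genes.

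The Ring1 promoter is shown because it lies under the anchor with the most tags of any member. The stretch is the 250 bases before the RefSeq start, chr17:34024681-34024930 on the minus strand of GRCm38.p6, within the anchor chr17:34023685-34027325. Capitals mark the GC box (GGGCGG, also read as CCGCCC on the other strand) and the motif TGACGTC.
Ring1 promoter: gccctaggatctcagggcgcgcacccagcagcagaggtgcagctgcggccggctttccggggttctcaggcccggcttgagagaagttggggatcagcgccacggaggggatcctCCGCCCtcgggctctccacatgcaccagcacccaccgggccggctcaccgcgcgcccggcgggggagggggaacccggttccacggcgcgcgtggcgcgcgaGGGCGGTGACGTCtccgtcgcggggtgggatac
It holds 30 CpG dinucleotides. Over the full promoter window of 250 bases before to 50 bases after the start, Ring1 had 2 matches to TGACGTC and 3 to GGGCGG on both strands together, and 3.21% of the 32851 promoters in the RefSeq table had at least 1 match to TGACGTC, beside 35.7% for GGGCGG. These matches describe the letters and are not measured binding sites.

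The loop of Ring1 with the most tags was also the shortest of any member. It joined the Ring1 anchor to chr17:34030004-34033152, whose centre lies 6.07 kb upstream and which reaches the TSSs of Rxrb, a retinoid X receptor gene, Slc39a7, a zinc transporter gene, H2-Ke6 and Gm20427. This loop had 36 tags with an FDR listed as 0 in the first part and 5 tags with an FDR of 0.0118 in the second. Of the 83 loops of the first part of like span (from 0.8 times this span to this span divided by 0.8), 7.23% had as many tags or more, and in the second part 50.0% of 60 such loops did. The Ring1 anchor itself also reached TSSs of H2-Ke6, Mir219a-1, Mir219c and Gm26940, so that the tags cannot be given to Ring1 alone. Loops under 20 kb held 41 of the Ring1 tags, and the other 24 tags would still have been the most of any member.

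The remaining Ring1 loops were spread over both sides of the gene. A loop of 7 tags reached chr17:33938119-33942722, at Pfdn6, Wdr46 and CR974462.1, 85.1 kb downstream, a count that 86.6% of loops of like span reached or exceeded. On the upstream side 4 loops with 2 tags each led to the promoters of Rnf5 and Agpat1 at 578.4 kb, of C2 and Zbtb12 at 867.7 kb, of Bag6 and Apom at 1109.8 kb and of Ddx39b at 1216.9 kb, with FDRs from 0.00052 to 0.0011. Single tags joined it to 9 further anchors, from 214.7 kb at Kank3 to 1891.2 kb at Mrps18b and Ppp1r10. Each of the 15 distal anchors of Ring1 lay within 2 kb of a TSS.

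Ring1 had no loop to another member, and no other pair of members was joined. It did share distal anchors with Csnk2b, the regulatory subunit of casein kinase 2, an enzyme found in some variant PRC1 complexes, whose promoter anchor lies 1095.8 kb away in the same region. The same 7 anchors were distal to both genes, which is 46.7% of the 15 distal anchors of Ring1 and 36.8% of the 19 of Csnk2b. They include the Rxrb anchor, with 36 and 5 tags to Ring1 and 1 tag to Csnk2b, and the Bag6 anchor, with 2 tags to Ring1 and 14 tags to Csnk2b. No loop joined Ring1 and Csnk2b directly, and no other gene of the lists used below shared a distal anchor with a member. The 7 shared anchors each had from 8 to 28 loops in the list. How often other promoters of such a dense region share anchors was not tested, and this sharing was found after the values were seen.

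Rnf2 had a single loop, which was among the better supported ones of its span. It joined the Rnf2 anchor chr1:151498692-151502060 to chr1:151753991-151757215, 255.2 kb upstream, at the TSSs of Edem3, which encodes a protein of endoplasmic reticulum quality control, and of 2810414N06Rik. The loop had 4 tags and an FDR of 1.2e-05, all in the first part, and 14.5% of 1008 loops of like span had as many tags or more. The Rnf2 promoter is shown beside that of Ring1 as its paralog, from the 250 bases before the RefSeq start at chr1:151500992-151501241 on the minus strand, with GC boxes in capitals.
Rnf2 promoter: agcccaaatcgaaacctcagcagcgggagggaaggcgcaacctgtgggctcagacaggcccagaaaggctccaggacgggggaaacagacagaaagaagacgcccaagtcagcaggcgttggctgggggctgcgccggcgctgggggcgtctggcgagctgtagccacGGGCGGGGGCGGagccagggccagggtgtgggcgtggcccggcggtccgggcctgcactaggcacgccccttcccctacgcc
It holds 20 CpG dinucleotides and 2 adjoining GC boxes, and the full window of Rnf2 had no match to TGACGTC.

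The PCGF genes, whose products define the variant complexes, had 11 tags at Pcgf1, 4 at Pcgf3 and 5 at Pcgf6, with overlapping intervals of 5.49 to 19.7, 1.09 to 10.2 and 1.62 to 11.7. Per kb of window the order was Pcgf1 with 1.79 tags, Pcgf6 with 0.923 and Pcgf3 with 0.331. Most tags of Pcgf1 came from 1 loop of 9 tags to chr6:83165088-83167271, 87.5 kb downstream at Dctn1, a dynactin subunit gene, with an FDR of 0.00715. Of 109 loops of like span, 39.4% had as many tags or more. The other 2 loops of Pcgf1 had a single tag each and went to Dguok at 428.3 kb and to Exoc6b at 1990.7 kb, the longest span of any member. All 11 tags of Pcgf1 were in the first part of the list.

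Pcgf3 had 4 loops of a single tag. Their distal anchors lay at Idua and Dgkq 198 kb downstream, and upstream at Mtf2 at 396.3 kb, at Ube2d2b at 631.3 kb and in an intron of Rpap2 at 852.4 kb. MTF2 is an accessory subunit of PRC2, the complex that methylates lysine 27 of histone H3. Pcgf6, which encodes the PCGF subunit of the complex with MGA, MAX and E2F6, had a loop of 2 tags to Cnnm2, 289.3 kb downstream with an FDR of 0.00664, although 94.5% of loops of like span had at least as many. Its other 3 loops had a single tag and reached an intron of Wbp1l, the promoters of Actr1a and Sufu, and Gbf1, between 406.2 and 898.1 kb downstream. All 4 distal anchors of Pcgf6 thus lay on the same side of the gene, and those of Pcgf1 and Yaf2 were likewise all downstream.

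Rybp and Yaf2, the alternative subunits that define variant PRC1, had 6 tags (2.20 to 13.1) and 4 tags (1.09 to 10.2). They were the members with the fewest neighbours, with 2 genes within 500 kb of Rybp and 4 within 500 kb of Yaf2. The strongest loop of Rybp led to no promoter. It had 3 tags and an FDR of 0.00035 and joined Rybp to the intergenic anchor chr6:100562648-100564483, 276.9 kb upstream and 35.2 kb from the nearest TSS, that of 1700049E22Rik. Of 961 loops of like span, 34.5% had as many tags or more. This was the loop with the most tags among those of the members to an anchor far from TSSs, and the 200 bases at the centre of the anchor, chr6:100563466-100563665 on the plus strand, are shown for that reason, with CpG and the MboI site GATC in capitals. MboI cut the chromatin for HiChIP.
Rybp distal anchor: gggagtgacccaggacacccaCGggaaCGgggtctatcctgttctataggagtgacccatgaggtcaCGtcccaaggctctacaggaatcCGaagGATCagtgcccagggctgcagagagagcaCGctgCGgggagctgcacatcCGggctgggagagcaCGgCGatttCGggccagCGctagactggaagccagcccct
This stretch holds 11 CpG and 1 MboI site and is 63.0% G or C, and no exon of the annotation overlaps it. Over the whole anchor there were 48.5 CpG per kb. The other Rybp loops, of a single tag each, reached an intron of Shq1, and Gxylt2 and Foxp1.

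Yaf2 was, with Ring1, 1 of 2 members whose distal anchor overlapped between the parts of the list. Its loops joined the promoter to chr15:92596562-92598606 at a TSS of Pdzrn4, 739 kb downstream, with 1 tag in each part, with FDRs of 0.0263 and 0.0118. The other 2 loops of Yaf2 went to an intron of Pdzrn4 at 900.9 kb and to an intergenic anchor at 1708.1 kb. Loops in both parts were listed for 7 of the 10 members, beside 24.3% of the protein-coding genes, and an overlapping distal anchor in both parts for 2 of 10, beside 7.16%. Of the 5335 protein-coding genes with loops in both parts, 29.4% had such an anchor. The share of tags in the first part was 82.3% (74.2 to 88.2) for the members and 77.1% (63.5 to 86.7) without Ring1, beside 70.5% for all loops at protein-coding promoters. These intervals treat tags as independent, although 36 of the member tags came from 1 Ring1 loop. Counted by loops, 68.1% (53.8 to 79.6) of those of the members were in the first part.

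Kdm2b, with 19 TSSs and a promoter window of 39.5 kb, had 4 tags (1.09 to 10.2) and at 0.101 tags per kb the lowest density of any looped member. Each of its 4 loops had a single tag and began at a different promoter anchor. The anchor over the longest transcripts, 0.442 kb into the gene, joined Ddx55 at 1563.6 kb upstream. That next to it, at 2.64 kb, joined Psmd9, a proteasome chaperone gene, at 241.2 kb upstream. The anchor at 38.0 kb joined Fam216a and Gpn3 at 579.4 kb downstream, and the one at 90.7 kb, over the start of the shorter transcripts, joined P2rx4, an ATP-gated channel gene, at 191.1 kb downstream. The loop score thus gives no order between the promoters of Kdm2b.

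Usp7 was the member without a loop, although its promoter is the most CpG dense of the member promoters in the RefSeq table. No loop was anchored within 2 kb of any of its 13 TSSs or within its gene body, and a count of 0 allows up to 3 tags. From the RefSeq start, the nearest anchors lay 89.8 kb upstream, at 1810013L24Rik, and 99.5 kb downstream, at Pmm2 and Tmem186. The RefSeq start lies inside the GENCODE gene, and from the GENCODE gene start, chr16:8792308, the 1810013L24Rik anchor was only 35.9 kb away. Only 4 loops had an anchor within 500 kb of the gene, the fewest of any member, beside 11 to 218 for the others. The Usp7 sequence is shown as the CpG island without a loop: chr16:8738421-8738592 on the minus strand, the bases from 250 to 79 before the RefSeq start, where no exon is annotated. Capitals mark GC boxes and 1 CCAAT box, read here as ATTGG.
Usp7 promoter: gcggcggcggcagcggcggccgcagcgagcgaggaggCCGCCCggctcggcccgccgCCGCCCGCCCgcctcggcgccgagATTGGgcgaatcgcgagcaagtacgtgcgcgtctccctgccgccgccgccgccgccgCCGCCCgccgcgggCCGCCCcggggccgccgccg
The 172 bases hold 40 CpG. The full Usp7 window held 63 CpG, more than 99.97% of the promoters in the table, and 8 overlapping or separate matches to GGGCGG.

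Bap1, the deubiquitinase gene, had 7 loops with 10 tags (4.80 to 18.4), 5 tags in each part of the list. The loop with the most tags joined it to chr14:31016967-31020329, 233.2 kb upstream, at the start of Pbrm1, which encodes the defining subunit of the PBAF chromatin remodeler, and of Gnl3, Snord19 and Gm24916. It had 3 tags and an FDR of 0.00094 in the first part, and 35.0% of 1056 loops of like span had as many or more. In the second part, a loop of 2 tags with an FDR of 0.00086 reached Eaf1 and Mettl6, 244.2 kb downstream, and 8.42% of 1948 loops of like span in that part had as many or more. The other 5 loops had a single tag each and reached Smim4 and Nt5dc2, Tmem110, Sfmbt1, Ankrd28 and Tkt. SFMBT1 belongs to a family of MBT domain proteins related to polycomb factors. The promoter anchors of Bap1 also contained the start of Phf7, a divergent neighbour, and without such shared anchors the loop score of Bap1 was 0.

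**Figure D2:**
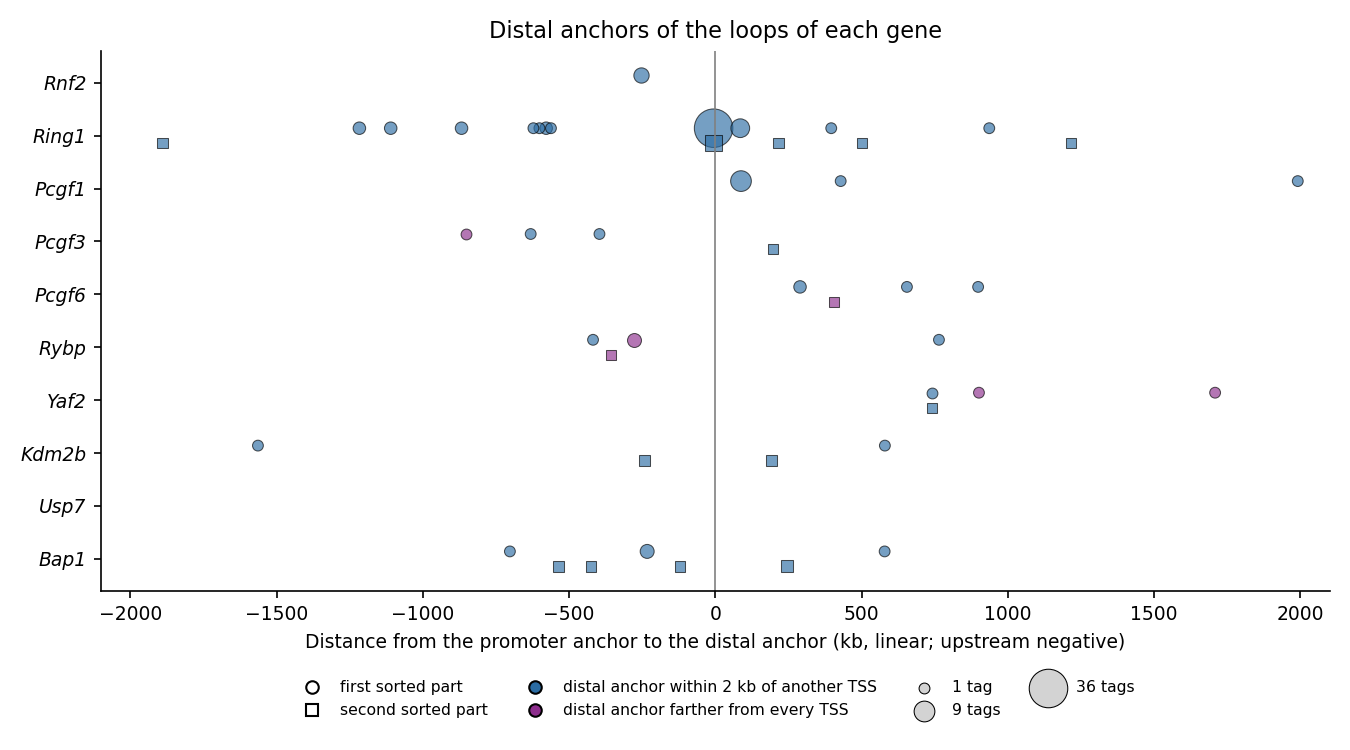
Signed distance (kb, linear axis, upstream negative) from the promoter anchor to the distal anchor of each of the 47 loops, by gene. Circles are loops of the first sorted part of the list and squares of the second, area grows with tags, blue marks distal anchors within 2 kb of another TSS and purple the 6 anchors farther away, which belong to Pcgf3, Pcgf6, Rybp and Yaf2.

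Over all members, 24 loops ran upstream and 23 downstream. The median span was 562.1 kb, beside 510.4 kb for the loops of all protein-coding promoters. The 4 loops under 100 kb, 3 of Ring1 and 1 of Pcgf1, held 57 of the 113 tags, and 7 loops spanned over 1 Mb. Distal anchors lay within 2 kb of another TSS in 39 of 45 cases, which is 86.7% (Wilson 95% interval 73.8 to 93.7). Without Ring1 the share was 80.0% (62.7 to 90.5), beside 79.1% over all looped protein-coding promoters. The 6 anchors far from TSSs were 2 each of Rybp and Yaf2 and 1 each of Pcgf3 and Pcgf6, and the distance of these 6 to the nearest TSS was between 10.6 and 38.2 kb.

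**Figure D3:**
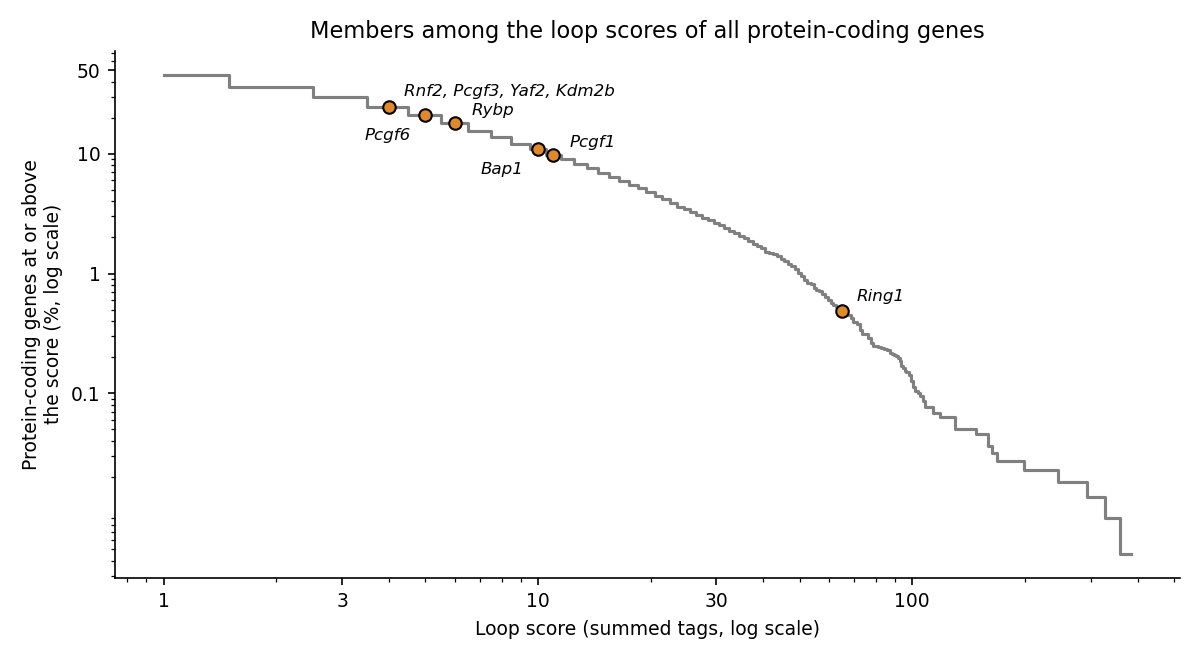
Percent of the 21951 protein-coding genes at or above each loop score (both axes log scale), with the 9 looped members as orange points. The members with 4 to 11 tags sit on the upper slope of the curve, and Ring1 with 65 tags sits where under 1% of the genes remain.

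The CpG density of the anchors differed by class. The 16 promoter anchors had a median of 50.0 CpG per kb (range 25.9 to 88.5), beside 32.8 over the 16864 distinct anchors of the list. The latter pool anchors near and far from TSSs, and anchors at other promoters alone were not measured. The 39 distal anchors near TSSs had a median of 37.6 CpG per kb, and the 6 far from TSSs had 12.9, with the Rybp anchor at 48.5 as the highest of the 6. Some promoter anchors of the parts overlap, so that these points are not independent. In the RefSeq promoter table, 7 members matched with 10 promoters, those of Rnf2, Ring1, Pcgf3, Pcgf6, Kdm2b, Usp7 and Bap1. Of the 4 windows of Kdm2b, a pair overlapped by 283 bases, so that their matches are mostly the same letters. The 10 windows had a median of 33.5 CpG per window, against 7 over all promoters in the table. A GGGCGG was present in 8 of the 10 windows, those of 6 of the 7 members, beside 35.7% of all promoters. TGACGTC was present in 2 of the 10, that of Ring1 and 1 of the 4 of Kdm2b, beside 3.21%. The other motifs counted on both strands in the same windows were CACGTG, found in Bap1 and in 7.15% of all promoters, TTTCGCG, found in Pcgf6 and in 0.849%, GCGCATG, found in Pcgf3 and in 3.91%, ATGGCGG, found in Ring1 and in 4.05%, CCGGAAG, found in none of the 7 members and in 8.86%, CCAAT, found in Kdm2b and Usp7 and in 37.4%, and GATC, found in Kdm2b and Ring1 and in 48.0%.

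**Figure D4:**
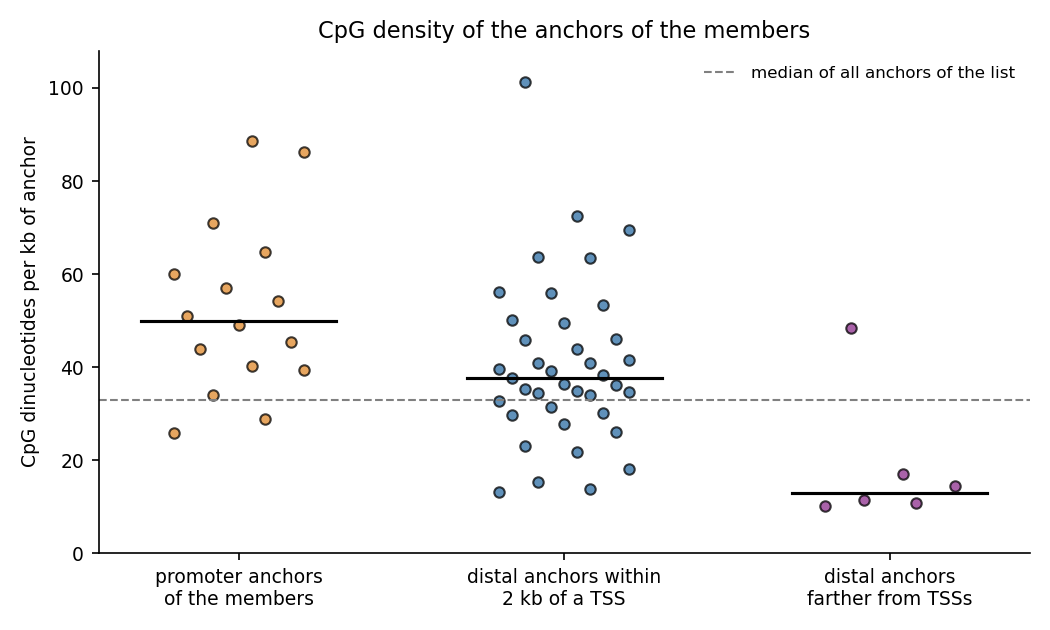
CpG dinucleotides per kb (linear axis) of each distinct anchor of the members' loops, with the median of each class as a black line and the median of all anchors of the list, 32.8, as a dashed line. The promoter anchors sit highest, with a median of 50.0, and 5 of the 6 anchors far from TSSs sit below the dashed line.

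The genes of related complexes were counted by the same rule, by which 45.8% of all protein-coding genes had a loop. Of 21 further variant PRC1 partner genes, 19 had a loop, with a median loop score of 6 tags. The largest scores were those of Fbrs with 50 tags, Csnk2b with 44 and Auts2 with 32, and Csnk2a2 and Hdac2 had no loop. FBRS and AUTS2 are related proteins of the PCGF3 and PCGF5 complexes. Of 11 canonical PRC1 genes, 10 had a loop, with a median of 3 tags. Pcgf2, the paralog of Bmi1, had 49 tags and Cbx6 17, whereas Bmi1 had none.

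Of 16 PR-DUB partner and other H2A deubiquitinase genes, 13 had a loop, with a median of 2.5 tags. Mbd6, whose product binds PR-DUB, had 46 tags, Foxk1, which encodes a forkhead factor found with PR-DUB, had 37, and Usp21, an H2A deubiquitinase gene, had 35. Usp16, Usp3 and Usp44, genes of further H2A deubiquitinases, had no loop. Of 5 genes of H2AK119ub readers, 4 had a loop, with Jarid2 at 6 tags, Dnajc2 at 4 and Rsf1 at 2, and Aebp2 had none. JARID2 and AEBP2 are the PRC2 subunits that bind the mark. Over the 53 genes of the 4 lists, 46 had a loop, beside the 45.8% of all protein-coding genes given above. At least 10 tags were reached by 15 of them, beside 10.9% of all protein-coding genes. The median was 4 tags, beside 0 over all protein-coding genes. No gene of the lists was found at a distal anchor of a member.

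**Figure D5:**
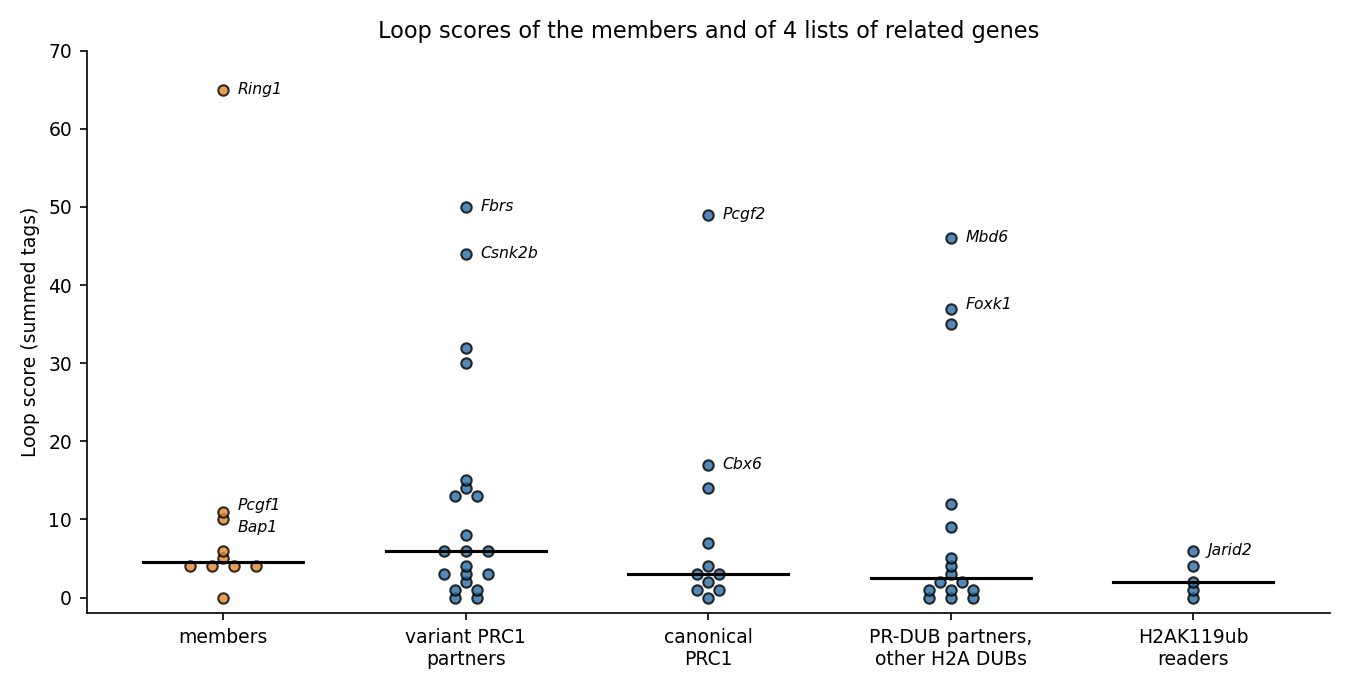
Loop score (summed tags, linear axis) of each member in orange and of each gene of 4 lists of related genes in blue, with the median of each list as a black line. The medians lie between 2 and 6 tags in every list, and the only genes above 40 tags are Ring1, Fbrs, Csnk2b, Pcgf2 and Mbd6.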

How the data were processed

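H3K27ac HiChIP was measured in 2 hSS2 tumors. The authors digested crosslinked chromatin with MboI, used HiC-Pro to map the read pairs to mm10, called loops and merged them. Their methods name hichipper with an FDR under 0.05 for the loops, whereas a figure legend names Mango with an FDR under 0.01. The way the loops were merged is not given in the sources used here. The deposited list gives each loop a count of paired-end tags, which is not normalized, and an FDR (an adjusted p-value). The ChIP-seq samples were not analysed here.

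Anchors were converted to start at 1 and matched to the TSSs of GENCODE vM21 within 2 kb. The loop score was the sum of tags, as a loop listed in both parts counts in each. Intervals are exact Poisson for counts and Wilson for shares, at 95%, and cover counting error only, since loops were selected by FDR and PCR copies may remain. The promoter assignment was tested on simulated data. Promoter sequences were from RefSeq (GRCm38.p6). Python 3.11.15 with pandas 2.3.3 and scipy 1.17.1 was used.

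The members and lists were chosen with earlier results of these data known. Named were the members, genes at their promoter anchors and at the distal anchors of their loops with most tags or at least 4 tags, and of each list the 3 largest scores and the genes without a loop; 1 gene that this rule names is not reported here. Genes at other member loops were named after their values were seen. Alternatives changed the window, loop filters, annotation and part of the list.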

Additional observations from a re-analysis of the deposited data

How the results depend on the processing

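With windows of 0, 1 or 5 kb, protein-coding or RefSeq transcripts, 9 members had a loop, with 113 tags and 86.7% of distal anchors near a TSS. The tags of the members were 67 with an FDR under 0.01, 54 with an FDR under 0.001, 79 with at least 2 tags a loop, 61 with at least 4, 72 with loops of 20 kb or more, 93 in the first part alone, 20 in the second alone and, chosen after seeing the data, 48 without Ring1. Members with a loop numbered 4 with an FDR under 0.001 and 3 with at least 4 tags, where the share of distal anchors near a TSS was 100% of 4. Of the alternative values of single members, 137 stayed within the counting interval of the reported value and 33 did not. These numbers do not measure robustness. Usp7 stayed at 0 in every setting, small counts have wide intervals, and the number of loops was also judged against the interval of the tags. The score per kb has another unit and stands in the report. The second part alone gave scores of 0 for Rnf2 and Pcgf1, and the cause was not tested. Leaving out loops of shared promoter anchors gave scores of 0 for Ring1 and Bap1, all of whose loops began at such anchors. No paired analysis was possible because the merged list carries no sample columns, and for the same reason no tumor could be left out. Depth limits every single-tag loop.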
